A study of Mus musculus with 6 samples.

Results

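Collagen chain genes were examined in Cxcl12-abundant reticular (CAR) cells, marrow stromal cells defined by their abundant Cxcl12, a chemokine. The 44 genes were those whose symbol is Col, a number, the letter a and a number, out of 19938 genes with a value. All 44 genes of that form in the RefSeq table had a probe set. They comprised 11 chains of fibrillar collagens, 6 chains of basement membrane collagen (type IV), 9 chains of FACIT collagens (fibril-associated collagens with interrupted triple helices), 6 chains of type VI collagen and 12 chains of other types. The comparison was between targeted CAR cells, in which Dmp1-Cre had acted, and non-targeted CAR cells. The Cre is expressed from sequence of Dmp1, which encodes a mineralisation protein best known from osteocytes. The mice were of the C57BL/6 strain at 7 weeks of age, and both populations came from the genotype Dmp1-Cre Cxcl12-gfp/+, so the non-targeted cells carried the same alleles. Marrow of femur and tibia was sorted by flow cytometry, each population was measured on 3 arrays, and per the series' design text 1 sample held the cells of 1 mouse. How targeting was seen in the sort, and whether a replicate number marks the same mouse in both populations, are not given in the labels. If a number does mark the same mouse in both, the main test, which used no pairing, ignored it. If the mice were handled together, the p-values below measure only the spread between these samples.

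Collagens are secreted proteins in which 3 alpha chains wind into a triple helix, and a trimer can combine the products of different genes. Type I collagen, made of chains from Col1a1 and Col1a2, is the main protein of the bone matrix and a product of osteoblasts. Type II and type X collagens belong to cartilage, type IV forms the network of basement membranes, FACIT collagens sit on the surface of fibrils, and type VI forms beaded filaments around cells. CAR cells express genes of both the fat and the bone lineage.

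The upstream sequences of 4 chain genes are shown, because 3 of them (Col1a2, Col6a3 and Col8a1) had their highest value on the same targeted array, while the fibrillar gene Col3a1 did not. They were taken from RefSeq on GRCm38.p6, run 5′ to 3′ on the gene's strand, end just before the annotated gene, and have in capitals each match on either strand to CCAAT (the CCAAT box), GGGCGG (the GC box bound by Sp1-type factors) or TGTGGT (the core bound by Runx factors). Col1a2 is chr6:4505368-4505617 on the plus strand, Col6a3 is chr1:90844002-90844221 on the minus strand, Col8a1 is chr16:57754738-57754987 on the minus strand and Col3a1 is chr1:45311288-45311537 on the plus strand.
Col1a2: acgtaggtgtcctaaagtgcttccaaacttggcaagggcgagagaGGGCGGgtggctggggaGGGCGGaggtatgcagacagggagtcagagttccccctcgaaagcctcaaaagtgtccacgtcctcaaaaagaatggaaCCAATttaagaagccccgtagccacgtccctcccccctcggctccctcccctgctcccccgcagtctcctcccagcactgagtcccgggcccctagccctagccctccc
Col6a3: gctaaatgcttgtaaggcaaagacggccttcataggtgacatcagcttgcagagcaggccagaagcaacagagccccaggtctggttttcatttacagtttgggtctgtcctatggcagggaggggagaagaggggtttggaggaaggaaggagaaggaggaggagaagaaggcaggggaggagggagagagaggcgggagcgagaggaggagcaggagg
Col8a1: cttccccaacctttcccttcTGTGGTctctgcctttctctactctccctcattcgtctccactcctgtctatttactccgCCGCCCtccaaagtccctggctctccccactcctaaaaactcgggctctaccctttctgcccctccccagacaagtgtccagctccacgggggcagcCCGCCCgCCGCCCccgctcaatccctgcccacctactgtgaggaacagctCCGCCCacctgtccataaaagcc
Col3a1: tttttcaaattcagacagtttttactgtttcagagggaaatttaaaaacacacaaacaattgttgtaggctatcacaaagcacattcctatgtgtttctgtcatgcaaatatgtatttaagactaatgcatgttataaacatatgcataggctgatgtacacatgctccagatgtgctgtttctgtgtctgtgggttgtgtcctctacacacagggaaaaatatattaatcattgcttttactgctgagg
The Col1a2 sequence held 1 CCAAT and 2 GGGCGG matches, the Col8a1 sequence held 4 GGGCGG matches and 1 TGTGGT match, and the Col6a3 and Col3a1 sequences held 0 of any. Of the 44 genes, 35 had an entry in the promoter table. In the 250 bases before the start, CCAAT occurred in 12 of these 35 and in 34.5% of all 27025 promoters, GGGCGG in 21 of 35 and in 32.9% of all, and TGTGGT in 2 of 35 and in 14.2% of all. The matches are letters in a window, not binding sites.

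Values are log2 of array intensities that the authors had normalised, and no detection calls were used. The array medians ran from 79.4 to 86.7 in targeted cells and from 80.6 to 87.5 in non-targeted cells, and the lowest median of each group was on targeted replicate 1 and on non-targeted replicate 2. The CAR markers Cxcl12 and Lepr were at a log2 intensity of 11.67 or more on every array, and the defining marker Dmp1 was at 11.28, 10.03 and 9.89 in targeted cells, against 7.51, 6.93 and 6.91 in non-targeted cells. Dmp1 had the smallest adjusted p of all genes (limma, 0.384), and since its sequence drives the Cre it is no finding independent of the sort. All 10 CAR markers were lower in targeted cells, with a median log2 difference of -0.29, and 0 passed. Of the 10 cartilage markers 7, and of the 10 endothelial markers 6, were among the dimmest genes that were not tested. Targeted replicate 1 stood apart in several marker lists, though not for every member. Of the 8 tested fibroblast and periosteal markers, 5 were highest on it and the rest were not. The mean log2 intensity of the 8 neutrophil markers was 6.39 there and 8.44 and 9.21 on the other targeted arrays, against 8.82 to 9.56 on the non-targeted ones, and that of the 11 fibroblast and periosteal markers was 7.97 there and 7.19 and 7.40 on the other targeted arrays, against 6.79 to 7.44 on the non-targeted ones. Differences of the chains and ratios that were highest on it are given with and without that array. The same holds for named genes outside the chains whose difference moved by over 1.5 times without it. In bulk samples such as these, fewer cells of a type and less RNA per cell cannot be told apart.

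No collagen chain gene passed the test between targeted and non-targeted cells. The 33.3% of genes with the lowest mean were left out, which kept all 44 chains among 13292 genes tested, and limma found 0 chains with an adjusted p under 0.05, as it found 0% of all genes. Unadjusted p was under 0.05 for 2 of 44 chains, Col6a3 and Col1a1, against 4.77% of all genes. Both were higher in targeted cells, as were 1.35% of all genes at that p, and 0 chains were lower, against 3.42% of all genes. The arrays separated completely for 4 chains, against 9.07% of all genes, with Col1a1, Col6a3 and Col25a1 higher in targeted cells (3.32% of all genes) and Col6a1 lower (5.76% of all genes). The mean was higher in targeted cells for 35 chains and lower for 9, where 48.9% of all genes were higher, and the median log2 difference of the chains was 0.11, where that of all genes was -0.01. With the arrays rescaled by quantiles 39 chains were higher and 5 lower, where 52.7% of all genes were higher. By cyclic loess 40 were higher and 4 lower (49.2% of all genes higher), and by median centring 35 and 9 (48.6%). Non-targeted replicate 2 was the lowest array for 32 of the 44 chains and for 2490 of the 13292 genes tested. Without it, 24 chains were higher and the chains' median was 0.01. Without targeted replicate 1 the chains' median was 0.19, and 39 were higher. The share and median of all genes are not given with an array left out, so these counts and medians have no background beside them.

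**Figure D1:**
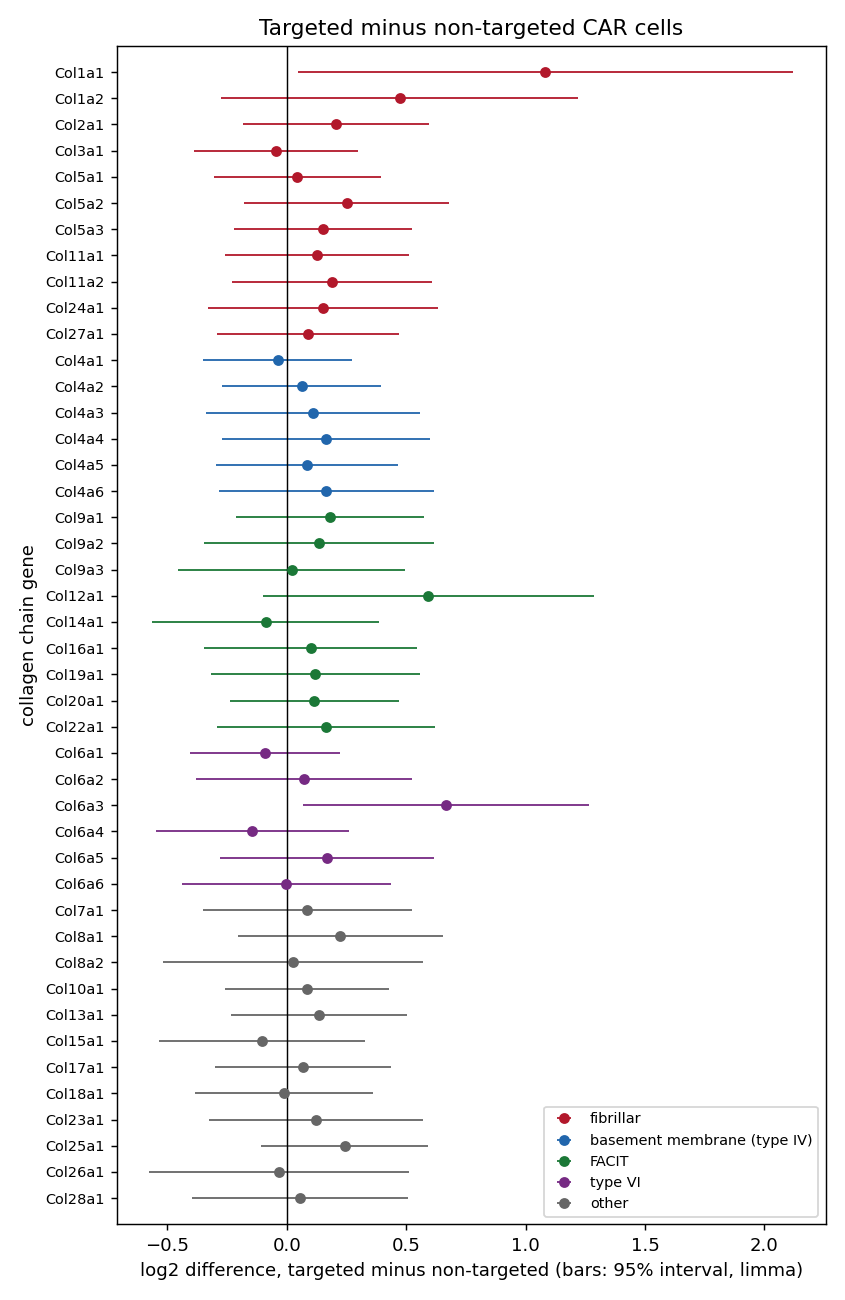
The plot gives the log2 difference of each of the 44 chain genes (targeted minus non-targeted, 3 arrays each) with its 95% interval from limma, coloured by class. The intervals of Col1a1 and Col6a3 lie above 0, and those of the other 42 chains include 0.

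By class, 10 of 11 fibrillar chains were higher in targeted cells (median log2 difference 0.15), 5 of 6 type IV chains (0.10), 8 of 9 FACIT chains (0.12), 3 of 6 type VI chains (0.04) and 9 of 12 other chains (0.08). Without non-targeted replicate 2 these medians were 0.06 for fibrillar, 0.02 for type IV, 0.01 for FACIT, -0.06 for type VI and -0.02 for other chains. The 3 largest differences belonged to chains of 3 classes, Col1a1, Col6a3 and Col12a1, and the next to Col1a2, a second fibrillar chain, at 0.47.

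The type I collagen genes had their highest level on targeted replicate 1. Col1a1, which encodes the chain that contributes most copies to type I collagen, was at 10.93, 9.09 and 9.34 in targeted cells, against 8.91, 8.46 and 8.74 in non-targeted cells. Each targeted array lay above each non-targeted array, by a small margin for the lower targeted ones. Col1a1 averaged 9.79 ± 1.00 in targeted cells, against 8.70 ± 0.23 in the non-targeted (SD, n = 3 each). The log2 difference was 1.08 (SE 0.45, 95% interval 0.05 to 2.12, limma adjusted p = 0.9998), a 2.12-fold ratio, and it was 0.51 without targeted replicate 1. Col1a2, its partner chain, was at 11.02, 9.80 and 9.89 in targeted cells, against 9.67, 9.96 and 9.66 in non-targeted cells. The groups overlapped, because non-targeted replicate 2 exceeded a pair of the targeted arrays. Its log2 difference was 0.47 (95% interval -0.27 to 1.22), and 0.08 without targeted replicate 1.

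The balance of the type I partner chains was read within each array. The log2 value of Col1a1 minus that of Col1a2 on the same array was -0.09, -0.70 and -0.55 in targeted cells, against -0.76, -1.49 and -0.92 in non-targeted cells. All targeted arrays lay above all non-targeted ones, with a group difference of 0.61 (exact two-sided permutation p = 0.10, adjusted p = 0.133 over 4 pairs of chains), which was 0.43 without targeted replicate 1. A p of 0.10 is the smallest p that 3 arrays against 3 can give. The probe sets respond on scales of their own, so only the change of this ratio between arrays can be read.

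**Figure D2:**
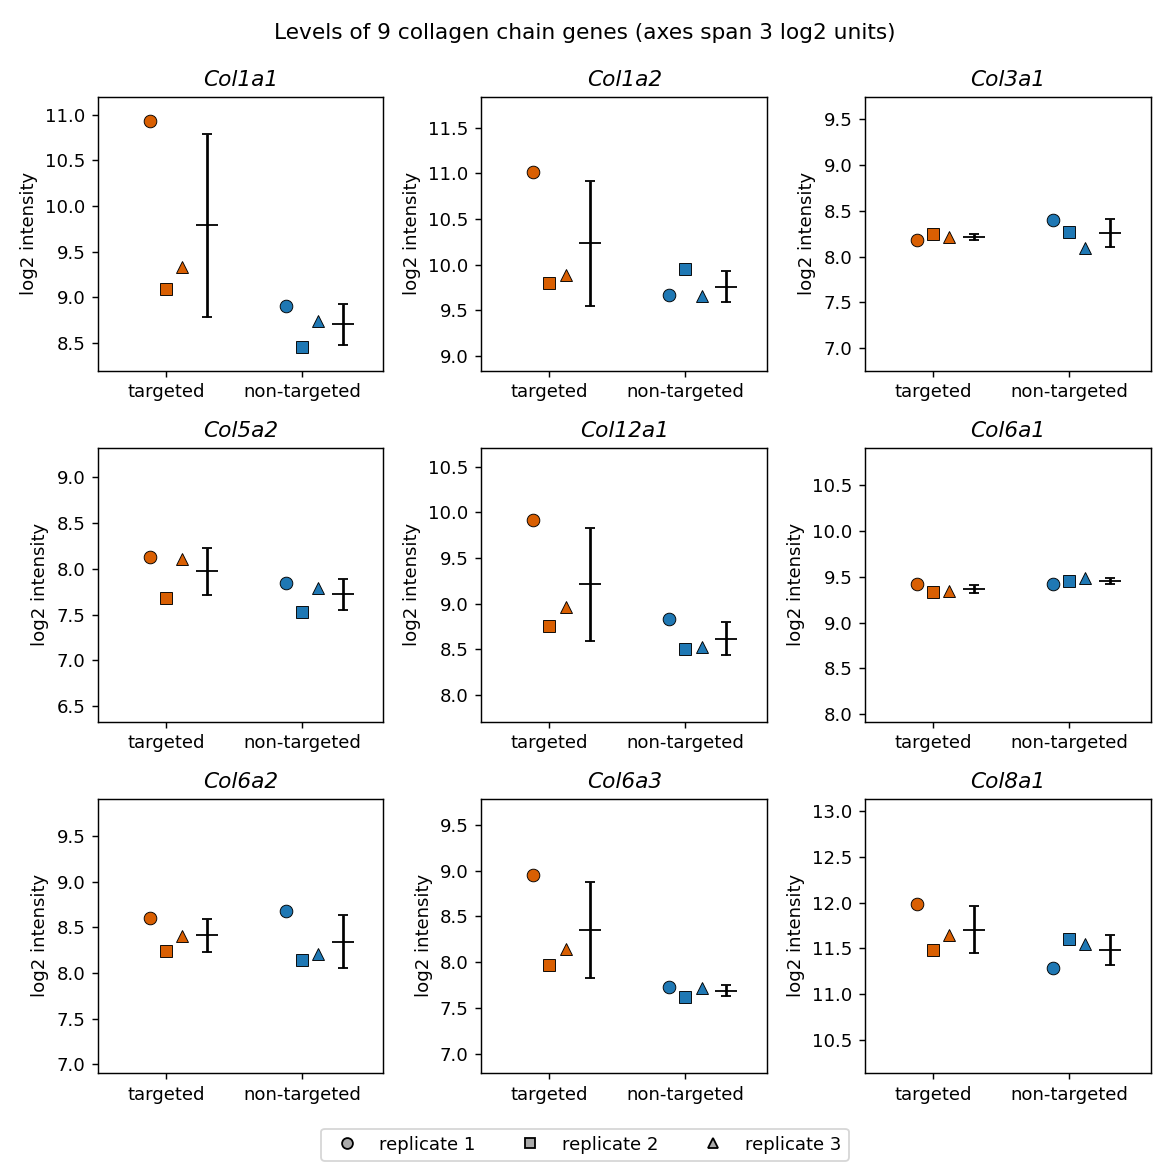
The panels give the log2 intensity of 9 chain genes in targeted and non-targeted cells, with a symbol for each replicate number and the mean ± SD of 3 arrays beside the points. Each axis spans 3 log2 units. Targeted replicate 1 is the highest point for Col1a1, Col1a2, Col5a2, Col12a1, Col6a3 and Col8a1, and not for Col3a1, Col6a1 or Col6a2.

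The other fibrillar chains differed little. Col3a1, the chain of type III collagen, which forms fibrils with type I in soft tissue and marrow, was at 8.18, 8.24 and 8.21 in targeted cells, against 8.40, 8.27 and 8.10 in non-targeted cells. Targeted values lay inside the non-targeted range, the log2 difference was -0.05 (95% interval -0.39 to 0.30), and its sign turned under cyclic loess scaling (0.0053). Col5a2, a chain of type V collagen, which helps start type I fibrils, was at 8.13, 7.68 and 8.11 in targeted cells, against 7.85, 7.52 and 7.79 in non-targeted cells. It overlapped between the groups, with a log2 difference of 0.25 (95% interval -0.18 to 0.68), and of 0.17 without targeted replicate 1. The other type V chains differed by 0.04 for Col5a1 and 0.15 for Col5a3.

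The remaining fibrillar chains, several of them known from cartilage, overlapped between the groups. Col2a1, the chain of cartilage fibrils, was at 7.71, 7.99 and 8.04 in targeted cells, against 7.88, 7.55 and 7.67 in non-targeted cells (log2 difference 0.21, 95% interval -0.18 to 0.60). Col11a2, a chain of the type XI collagen at the core of cartilage fibrils, was at 7.71, 7.95 and 8.02, against 7.92, 7.44 and 7.75 (log2 difference 0.19). Col11a1 differed by 0.13, Col24a1 by 0.15 and Col27a1 by 0.09. Non-targeted replicate 2 was the lowest array for all 5 of these chains.

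Among FACIT chains Col12a1 differed most. Col12a1, whose product lies on type I fibrils of bone, tendon and periosteum, was at 9.91, 8.76 and 8.96 in targeted cells, against 8.83, 8.50 and 8.52 in non-targeted cells. Non-targeted replicate 1 exceeded targeted replicate 2, so the groups overlapped. Col12a1 averaged 9.21 ± 0.61 in targeted cells, against 8.62 ± 0.18 in the non-targeted (SD, n = 3 each). The log2 difference was 0.59 (SE 0.30, 95% interval -0.10 to 1.29), a 1.51-fold ratio, and it was 0.24 without targeted replicate 1. Col9a1, a chain of the type IX collagen on cartilage fibrils, was at 6.75, 7.11 and 7.14, against 6.95, 6.69 and 6.82 in non-targeted cells (log2 difference 0.18). Its partners differed by 0.14 for Col9a2 and 0.02 for Col9a3. Of the remaining FACIT chains Col14a1 differed by -0.09, Col16a1 by 0.10, Col19a1 by 0.12, Col20a1 by 0.12 and Col22a1 by 0.16, and all overlapped.

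Type VI collagen is assembled from 1 chain each of Col6a1, Col6a2 and a longer chain, most often that of Col6a3. Col6a3 was at 8.95, 7.97 and 8.15 in targeted cells, against 7.73, 7.62 and 7.72 in non-targeted cells. All targeted arrays lay above the narrow non-targeted range. Col6a3 averaged 8.36 ± 0.52 in targeted cells, against 7.69 ± 0.06 in the non-targeted (SD, n = 3 each), and the log2 difference was 0.67 (SE 0.26, 95% interval 0.07 to 1.26, limma adjusted p = 0.982), a 1.59-fold ratio that came to 0.37 on the log2 scale without targeted replicate 1. Col6a1 was at 9.42, 9.34 and 9.35 in targeted cells, against 9.42, 9.46 and 9.49 in non-targeted cells. All 3 targeted values were the lower ones, narrowly for the nearest pair, with a log2 difference of -0.09 (95% interval -0.40 to 0.22). Col6a2 was at 8.60, 8.24 and 8.41, against 8.67, 8.14 and 8.21 in non-targeted cells, and overlapped (log2 difference 0.07).

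The ratio of Col6a3 to either partner was read within each array. Its log2 value minus that of Col6a1 was -0.46, -1.37 and -1.20 in targeted cells, against -1.70, -1.84 and -1.77 in non-targeted cells, a group difference of 0.76, and of 0.48 without targeted replicate 1. Its log2 value minus that of Col6a2 was 0.36, -0.27 and -0.26 in targeted cells, against -0.95, -0.51 and -0.49 in non-targeted cells, a group difference of 0.59, and of 0.39 without targeted replicate 1. Both ratios were higher on all targeted arrays, and each had the smallest exact permutation p, 0.10 (two-sided, adjusted p = 0.133 over 4 pairs). Col6a3 by itself was higher, and Col6a1 by itself lower, on all targeted arrays, so the separation of their ratio was fixed by those values. The ratio to Col6a2 uses the same Col6a3 values, so neither ratio is a result separate from that of Col6a3. The chains that can take the place of Col6a3 gave other patterns. Col6a4 was at 6.57, 6.66 and 6.98, against 7.07, 6.78 and 6.80 in non-targeted cells, a log2 difference of -0.14. Col6a5 was at 6.90, 7.22 and 7.25, against 7.23, 6.69 and 6.94, a log2 difference of 0.17. Col6a6 was at 7.996, 8.27 and 8.25, against 8.48, 7.93 and 8.11, with a mean of 8.17 in both groups. A second probe set existed for each of Col6a5 and Col6a6, and it was higher in targeted cells by 0.25 for Col6a5 and 0.22 for Col6a6. The second probe set of Col6a5 averaged 6.12 in targeted cells and 5.87 in the non-targeted, and that of Col6a6, with a mean of 5.62 in targeted cells and 5.397 in the non-targeted, lay below the level of 6.00 under which genes were left out.

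Type IV chains form the basement membrane network, and their genes lie in head-to-head pairs. Col4a1 was at 7.82, 7.85 and 7.89 in targeted cells, against 7.90, 7.93 and 7.85 in non-targeted cells. Col4a2, which makes the common network with it, was at 7.91, 8.17 and 8.01, against 7.98, 7.98 and 7.94 in non-targeted cells. Both pairs of groups overlapped, with log2 differences of -0.04 (95% interval -0.35 to 0.27) and 0.06 (95% interval -0.27 to 0.40). The log2 value of Col4a1 minus that of Col4a2 averaged -0.17 ± 0.13 in targeted cells, against -0.07 ± 0.02 in the non-targeted (SD, n = 3 each, exact two-sided permutation p = 0.20, adjusted p = 0.20 over 4 pairs).

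The type IV chains of kidney, eye and other specialised basement membranes overlapped between the groups. Col4a3 was at 6.90, 7.16 and 7.21 in targeted cells, against 7.27, 6.68 and 7.00 in non-targeted cells. Col4a4 was at 6.87, 7.32 and 7.37, against 7.17, 6.86 and 7.03. Col4a5 was at 6.64, 6.94 and 6.86, against 6.91, 6.57 and 6.69. In each, non-targeted replicate 2 and targeted replicate 1 were the lowest arrays. Col4a6 had the same low arrays, at 6.18, 6.57 and 6.52, against 6.52, 6.00 and 6.25 in non-targeted cells. Log2 differences of these 4 chains ran from 0.09 to 0.17.

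Of the other chains, Col8a1 and Col25a1 stood out by their arrays. Col8a1, a chain of the short network-forming type VIII collagen, was at 11.99, 11.48 and 11.65 in targeted cells, against 11.29, 11.60 and 11.55 in non-targeted cells, and overlapped (log2 difference 0.22, 95% interval -0.20 to 0.65, 0.08 without targeted replicate 1). Col8a2, the partner of Col8a1, differed by 0.03. Col25a1, a transmembrane collagen known from neurons and muscle, was at 7.38, 7.47 and 7.34, against 7.24, 6.97 and 7.24 in non-targeted cells. Its targeted arrays all lay above the non-targeted ones by a small margin, with a log2 difference of 0.24 (95% interval -0.11 to 0.59), and of 0.25 without targeted replicate 1. Col10a1, the chain made by hypertrophic chondrocytes, was at 6.22, 6.30 and 6.34, against 6.36, 6.07 and 6.18, and overlapped. The anchoring fibril chain Col7a1 differed by 0.09, the transmembrane chains Col13a1, Col17a1 and Col23a1 by 0.14, 0.07 and 0.12, the basement membrane zone chains Col15a1 and Col18a1 by -0.10 and -0.01, and Col26a1 and Col28a1 by -0.03 and 0.06.

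Across the arrays a few chains were highest on targeted replicate 1 and many were low on it, a pattern noticed in the values and described here without a test. Col1a1, Col1a2, Col5a2, Col12a1, Col6a3 and Col8a1 were highest on targeted replicate 1. That is 6 of 44 chains (13.6%), near the 16.8% of all genes that were highest there, so this share does not set the chains apart. Their excess on it over the mean of the other 5 arrays ran from 0.34 for Col5a2 to 2.02 for Col1a1. For 25 of the other 38 chains, the lowest 2 arrays were targeted replicate 1 and non-targeted replicate 2, which held for 20% of all genes. These 25 chains lay at mean log2 intensities of 6.34 to 8.17, and of the 8214 other genes in that range 21.3% had the same lowest 2 arrays.

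The profile of all 44 chains crossed the groups. Their median deviation from the gene's own mean was -0.13, 0.13 and 0.13 on the targeted arrays, against 0.14, -0.25 and -0.07 on the non-targeted ones. Over all genes tested it was -0.05, 0.02 and 0.0015 on the targeted arrays, against 0.02, 0.02 and -0.01 on the non-targeted ones. The 25 chains lowest on targeted replicate 1 and non-targeted replicate 2 comprised 8 of 9 FACIT, 4 of 6 type IV, 7 of 12 other, 4 of 11 fibrillar and 2 of 6 type VI chains. Counted anew over all 44 chains, the order held for 24 with quantile scaling, 20 with cyclic loess and 14 with median centring of the arrays. Of all genes 15.2%, 11.3% and 10.9% had that order. The median intensity over all probe sets was also lowest on these 2 arrays, and its part in the profile was not tested beyond these scalings. Under all 3 scalings Col1a1, Col1a2, Col12a1, Col6a3 and Col8a1 were highest on targeted replicate 1.

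**Figure D3:**
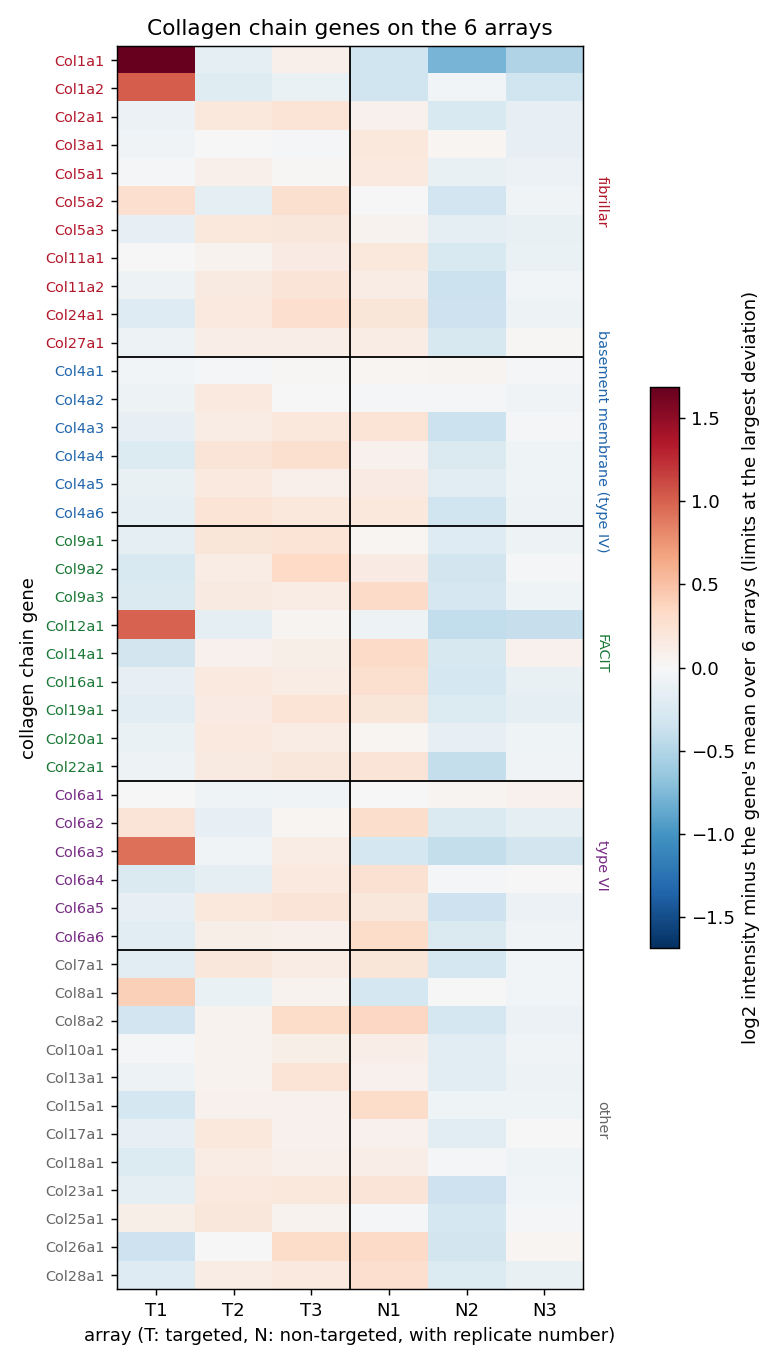
The heat map gives the log2 intensity of the 44 chain genes on each array minus the gene's mean over the 6 arrays, with rows grouped by class and the targeted arrays left of the line. Col1a1, Col1a2, Col12a1 and Col6a3 are red on targeted replicate 1 (T1), while most other rows are pale blue there and on non-targeted replicate 2 (N2).

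**Figure D4:**
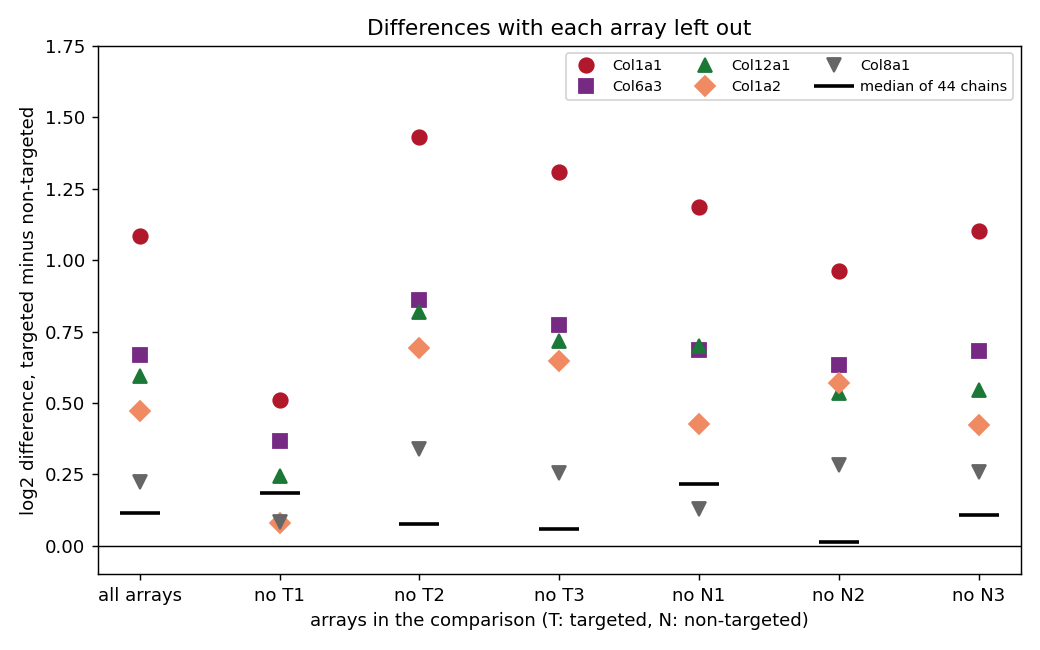
The plot gives the log2 difference (targeted minus non-targeted) of 5 chain genes, and the median of all 44, with all arrays and with each array left out. The differences of Col1a1, Col6a3, Col12a1, Col1a2 and Col8a1 were smallest without targeted replicate 1, at 0.51, 0.37, 0.24, 0.08 and 0.08, while the median of all 44 was smallest without non-targeted replicate 2, at 0.01.

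Of 33 listed enzymes and chaperones that process collagen, 27 were tested. In targeted cells 8 were higher and 19 lower, where 48.9% of all genes were higher, and their median difference was -0.13 on the log2 scale. Of these genes 0 passed (limma, adjusted over all genes). P4ha1, a catalytic subunit of prolyl 4-hydroxylase, was at 7.80, 8.07 and 7.94 in targeted cells, against 8.27, 8.53 and 8.31 in non-targeted cells, and P3h2, a prolyl 3-hydroxylase, was at 9.26, 9.69 and 9.45, against 9.78, 10.47 and 9.91. Neither overlapped, and neither passed (limma adjusted p = 0.970 for P4ha1 and 0.971 for P3h2). Lox, whose enzyme starts the crosslinking of collagen, differed by -0.75 (-1.16 without targeted replicate 1) and overlapped, and Fkbp14, a folding enzyme of the endoplasmic reticulum, differed by -0.39.

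All 5 tested collagenases and gelatinases were higher in targeted cells with a median of 0.59, all 5 had their highest value on targeted replicate 1, and 0 passed. Without that array 4 of the 5 were higher and the median was 0.20. Mmp13, the collagenase of bone, was at 12.91, 12.35 and 12.62 in targeted cells, against 11.42, 11.70 and 11.64 in non-targeted cells, a log2 difference of 1.04 (limma adjusted p = 0.701). Mmp2, a gelatinase, was at 10.11, 8.44 and 8.45, against 8.51, 7.91 and 8.27, and overlapped. Its difference was 0.77, and 0.21 without targeted replicate 1. Mmp9, the other gelatinase, differed by 0.59 and the membrane-bound Mmp14 by 0.34, against 0.20 and 0.14 without that array. Of 7 tested collagen receptors 4 were higher and 3 lower, and 0 passed. Itga10, the alpha chain of a collagen-binding integrin, was at 8.65, 7.42 and 7.30, against 6.71, 6.67 and 6.90 in non-targeted cells, while the receptor kinase Ddr1 was at 8.39, 7.91 and 8.17, against 8.57, 8.97 and 8.65. The arrays of both did not overlap (limma adjusted p = 0.947 each). Itga10 differed by 1.03, and by 0.60 without targeted replicate 1. The integrin chains Itga1 and Itgb1 differed by -0.31 and -0.20, and without that array by -0.49 and -0.31.

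Proteins that bind fibrils and basement membranes did not share one direction. Of the 13 tested fibril-associated genes 6 were higher and 7 lower, with a median of -0.11 (-0.19 without targeted replicate 1), and 0 passed. Postn, the periostin gene of periosteum, was at 10.44, 7.43 and 7.27 in targeted cells, against 7.26, 6.26 and 5.51 in non-targeted cells, whereas Prelp, a small leucine-rich proteoglycan, was at 9.96, 8.88 and 9.27, against 10.24, 11.12 and 10.18. Postn differed by 2.04, and by 1.01 without targeted replicate 1. Podn, of the same proteoglycan family, was at 7.57, 8.50 and 8.37, against 8.63, 9.13 and 9.19 in non-targeted cells, and Lum, also of that family, was at 10.60, 9.42 and 9.01, against 8.56, 8.17 and 9.08. Podn differed by -0.84 and Lum by 1.07, and without targeted replicate 1 by -0.55 and 0.61. Of 15 tested basement membrane partners 5 were higher and 10 lower, with a median of -0.10 (-0.17 without that array), and 0 passed. Lamc1 and Lama3, which encode laminin chains, differed by -0.46 and -0.29, the nidogen gene Nid2 by -0.55 (-0.89 without targeted replicate 1) and Pxdn, whose product crosslinks type IV collagen, by -0.43.

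Markers of other cell types that make these chains were read beside them. All 5 tested osteoblast markers were higher in targeted cells, and their mean log2 intensity was 9.97, 9.70 and 9.79 in targeted cells, against 9.31, 9.48 and 9.30 in non-targeted cells. Alpl, the alkaline phosphatase of mineralising cells, was at 11.76, 10.63 and 11.06, against 10.42, 9.95 and 9.74, and like Col1a1 was highest on targeted replicate 1. The list did not share this order: 2 of the 5 tested osteoblast markers were highest on that array and 1, Ifitm5, was lowest on it. Ifitm5 differed by 0.27, and by 0.44 without that array. The mean of the 10 cartilage markers was 5.67, 5.86 and 5.81, against 5.84, 5.66 and 5.67, and that of the 10 endothelial markers was 5.84, 6.14 and 6.09, against 6.16, 5.85 and 5.93. The cartilage mean was lowest on non-targeted replicate 2 and the endothelial mean on targeted replicate 1. Of tested markers, 4 of 5 were higher for osteocytes, 2 of 3 for cartilage and 3 of 4 for endothelium. Those 4 osteocyte markers include Dmp1, whose sequence drives the Cre, so that count is not independent of the sort. For pericytes and smooth muscle 5 of 9 were higher, and for Schwann cells 3 of 4. For fibroblasts and periosteum 7 of 8 were higher and for neutrophils 1 of 7, and 0 passed in any list. Without targeted replicate 1, 4 of 5 were higher for osteoblasts, 4 of 4 for endothelium and 6 of 9 for pericytes and smooth muscle. The counts were then 4 of 4 for Schwann cells, 6 of 8 for fibroblasts and periosteum and 3 of 7 for neutrophils. The part of any of these cell types in the collagen values was not tested.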

How the data were processed

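RNA of sorted marrow CAR cells was measured on Affymetrix mouse gene arrays, 3 arrays of targeted and 3 of non-targeted cells. The deposited table holds linear probe set intensities, normalised by the authors. The submitters' processing notes name RMA and version 1.4 of Affymetrix Expression Console. The genome build of the annotation is not given in the sources used here. A log2 was taken of these intensities, where the plan had assumed log2 values. Of 35556 probe sets, 21789 name 1 gene, 1621 name several and 12146 name none, and 21698 of the first were matched by Entrez ID to current RefSeq symbols (GRCm38.p6). The brightest probe set stood for each of 19938 genes, and 999 genes had several.

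The 33.3% of genes with the lowest mean over all arrays were left out (log2 intensity under 6.00), which left 13292. The test was limma's moderated linear model (version 3.58.1, R version 4.3.3), adjusted by Benjamini-Hochberg over all 13292 genes and a threshold of 0.05. The code was tested on simulated data. Ratios of partner chains were compared by exact two-sided permutation over the 6 arrays. Figures were drawn with matplotlib 3.10.9. Alternatives changed the filter, scaling, variance model, probe set rule, replicate block and arrays used. The 44 genes, their classes, the gene lists and the description by array were chosen with earlier results of these data known. All 44 genes are named, with all 6 arrays for the 10 smallest p, for partner chains of types I, IV and VI, and for Col2a1, Col3a1 and Col10a1. Of each list up to 4 genes of smallest p are named. Listed genes with no value, such as Fkbp10 and Runx2, are not analysed here.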

Additional observations from a re-analysis of the deposited data

How the results depend on the processing

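Over 18 alternatives, 0 collagen chains passed the adjusted threshold in any, 20 chains kept the sign of their difference in all and 21 changed it in at least 1. The other 3 (Col4a6, Col10a1 and Col19a1) kept it wherever they had a value, but were themselves left out with the lower 50% of genes. No cause was tested. A sign turned to 0.0084 for Col4a1, 0.045 for Col6a6, 0.041 for Col18a1 and 0.0093 for Col26a1 with quantile scaling, to 0.0053 for Col3a1, 0.0051 for Col4a1, 0.048 for Col6a6, 0.016 for Col18a1 and 0.0033 for Col26a1 with cyclic loess, to 0.086 for Col3a1, 0.000495 for Col4a1, 0.097 for Col6a6, 0.065 for Col15a1, 0.11 for Col18a1 and 0.029 for Col26a1 with array weights, and to 0.11 for Col6a6 with the mean of its probe sets. Over all genes, 1 passed with array weights (Dmp1). With the lower 50% of genes by mean left out, 32 of 41 chains were higher. Leaving out single arrays, chains whose sign turned ranged from -0.24 to 0.055 for Col14a1, -0.029 to 0.24 for Col6a2, -0.12 to 0.15 for Col6a6, -0.17 to 0.027 for Col15a1, -0.076 to 0.10 for Col18a1, -0.20 to 0.14 for Col26a1, -0.0069 to 0.12 for Col4a2, -0.11 to 0.19 for Col9a3 and -0.12 to 0.21 for Col8a2. The others ranged from -0.048 to 0.21 for Col28a1, -0.13 to 0.029 for Col3a1, -0.0079 to 0.13 for Col5a1, -0.025 to 0.17 for Col27a1, -0.042 to 0.25 for Col4a3, -0.022 to 0.26 for Col16a1, -0.039 to 0.21 for Col7a1, -0.0052 to 0.16 for Col17a1 and -0.019 to 0.26 for Col23a1. The class medians ranged from -0.059 to 0.20 for type VI and from -0.025 to 0.18 for other chains. With replicates 2 and 3 only, the class medians were 0.19 for type VI and 0.29 for other chains, and turned differences were 0.045 for Col3a1, 0.19 for Col14a1, 0.033 for Col6a4, 0.24 for Col6a6, -0.012 for Col8a1, 0.15 for Col15a1, 0.16 for Col18a1 and 0.29 for Col26a1.

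Same-numbered samples did not deviate together, with correlations of -0.26, -0.12 and 0.07. When replicate number entered as a fixed block, 1 gene passed over all genes (Dmp1), and 0 passed with a random block. Under either replicate block 35 chains were higher and 0 passed, and no chain's call changed.

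With 3 arrays a group, the intervals of the chains are wide against most differences. Signal of the dimmer chains lay close to the level below which genes were left out, a log2 intensity of 6.00, and probe sets not expressed in these cells still give a value, so a level is no sign of expression. The number of arrays limits the precision. Leaving targeted replicate 1 out of the partner ratios and the other gene lists was added after seeing the data.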
